A study of Mus musculus with 26 samples.

Results

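The genes examined encode proteins that bind AU-rich elements (AREs) or related uridine-rich sites in the 3′ untranslated regions (3′ UTRs) of mRNAs. They were chosen by name: Zfp36, Zfp36l1, Zfp36l2, Elavl1, Khsrp, Tia1, Tial1, Pum2 and Rc3h1. Of these 9 genes, 7 were listed, each as 1 canonical coding transcript, for both cell types of the series and with a half-life in every replicate. Zfp36 and Tial1 were not listed for either cell type and were not analysed here. The 7 genes stand among 8530 transcripts listed for oligodendrocyte progenitor cells (OPCs), 9751 listed for oligodendrocytes (OLs) and 8177 listed for both.

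The ARE-binding proteins decide how long many short-lived mRNAs last. The zinc finger proteins of the ZFP36 family bind AU-rich nonamers and their shorter cores and bring the CCR4-NOT deadenylase to the mRNA, which shortens the poly(A) tail, and phosphorylation through the kinases p38 and MK2 weakens this activity. KHSRP recruits decay enzymes to AREs, Roquin-1 (Rc3h1) binds stem-loops and Pumilio 2 (Pum2) binds a short U-rich site of its own, and both of these also act through deadenylases. ELAVL1 (HuR) binds overlapping U-rich and AU-rich sites and in general protects its targets, while TIA1 holds back their translation. Several of these proteins act on their own mRNAs or on those of their relatives.

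The study followed the decay of labelled RNA in mouse cells of strain 129S/SvEv. OPCs had been derived from epiblast stem cells of male embryos and were grown with bFGF and PDGFA, and OLs were differentiated from them in a medium with noggin, IGF-1, cyclic AMP, NT3 and the thyroid hormone T3. OPCs, and OLs that had differentiated for 40 h, took up 5-ethynyluridine (5-EU) for 24 h, uridine then replaced it, and RNA was collected at 0, 1, 2, 4 and 6 h of this chase. The series holds 15 OPC libraries (3 replicates), 10 OL libraries (2 replicates) and 1 OPC control without biotin, which was not analysed here, so the RNA that sticks to the beads without label was not subtracted. The labels name no genetic change, all cells came from 1 route of derivation in culture, and the study states that both OL replicates match OPC replicates without giving their numbers.

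Levels are FPKM, the fragments of a transcript divided by its length and by the size of the library, so they may be compared between genes, and values after 0 h had been scaled by the authors to labelled spike-in RNA. Half-lives were fitted by the authors with a ceiling of 6 h. The median half-life over all transcripts was 2.08 to 2.83 h in the OPC replicates and 4.44 to 4.54 h in the OL replicates, and the median level at 6 h was at most 17.7% of 0 h in OPCs and at least 31.5% in OLs, so slower decay in OLs was the rule across the series. The numbers of reads are unknown. All 8 OPC markers checked were listed in both cell types, 10 of 10 OL markers were listed in OLs and 3 of 10 in OPCs, and the summed OL marker level at 0 h was 39.2 to 57.5 FPKM in OPCs and 2980 to 6440 FPKM in OLs. Of the OPC markers 3 were higher and 3 lower in OLs at 0 h, and the platelet-derived growth factor receptor gene Pdgfra, which defines progenitors, went against the labels with 26.5, 11.5 and 13.3 FPKM in OPCs and 66.9 and 43.9 FPKM in OLs (log2 change 1.70 ± 0.37, limma adjusted p = 0.012). None of 6 microglial and none of 6 epiblast stem cell markers was listed. Of 6 astrocyte markers, 3 were listed in OPCs and 5 in OLs, with summed levels of 366 to 445 and 546 to 557 FPKM, and of 6 neuronal markers 3 and 4 were listed, with 83.3 to 189 and 200 to 215 FPKM. In such bulk samples fewer cells of a type and less RNA per cell cannot be told apart, and the part that other cells or earlier stages have in the values below was not tested.

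The 3′ UTRs of the 7 transcripts were searched for motifs that these proteins bind. On GRCm38 the transcripts span chr12:80107754-80113013 (Zfp36l1), chr17:84183931-84187947 (Zfp36l2), chr8:4285382-4325413 (Elavl1) and chr17:57021051-57031488 (Khsrp) on the minus strand, and chr6:86404336-86432180 (Tia1), chr12:8674421-8750001 (Pum2) and chr1:160906418-160974978 (Rc3h1) on the plus strand. The letters TATTTAT (the DNA form of the ZFP36 core, counted on the mRNA strand with overlapping matches) occurred in 6 of the 7. They are shown in capitals within windows of these 3′ UTRs, written 5′ to 3′, for the members of the ZFP36 family and for Elavl1, whose decay is described most fully below.
Zfp36l1, chr12:80108423-80108449, minus strand: tatcaaaacgTATTTATtgccaaacta
Zfp36l1, chr12:80108382-80108408, minus strand: attttgttcaTATTTATcgggatgaca
Zfp36l1, chr12:80108168-80108194, minus strand: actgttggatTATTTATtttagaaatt
Zfp36l2, chr17:84184915-84184941, minus strand: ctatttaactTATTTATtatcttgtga
Zfp36l2, chr17:84184867-84184893, minus strand: gtccatactgTATTTATcgagtatgat
Zfp36l2, chr17:84184681-84184707, minus strand: ttgtatgtaaTATTTATttcattaatt
Elavl1, chr8:4285785-4285811, minus strand: gaaaattattTATTTATttatttattt
Rc3h1, chr1:160974888-160974915, plus strand: ccttttggatTGTAAATAtatgaaagtg
The last line shows, in capitals, 1 of the 2 matches of Rc3h1 to the Pumilio site TGTANATA, which was in the 3′ UTR of none of the other 6. This site was in 26.8% of all 3′ UTRs. Of those about as long as that of Rc3h1, 73.2% held the site and 50% held at least as many matches.

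Zfp36l1 and Zfp36l2 each held 3 copies of TATTTAT, in 3′ UTRs of 1835 and 1822 bases. Among all 9974 3′ UTRs searched, 30.1% held at least 1 copy, and among those within 10% of the same length 40.2% and 40.1% did. At least 3 copies were in 4.33% and 4.51% of 3′ UTRs of like length. The 3′ UTR of Elavl1, 4218 bases long, held 8 copies, all of them overlapping or close together near its distal end, and the window above contains several of them. Of 366 other 3′ UTRs of like length 62.0% held a copy and 0% held as many. Rc3h1 held 2 copies in 7181 bases, Tia1 1 in 1813 and Pum2 1 in the 281 bases of its listed isoform, while Khsrp held 0 in 1642. Khsrp had instead 22 overlapping runs of 7 T, a number found in 2.05% of 3′ UTRs of like length. These matches are letters only, and binding was not measured.

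At the start of the chase, the 7 genes spanned the middle and upper part of the labelled mRNAs, from percentile 35.1 (Rc3h1 in OPC replicate 1) to 92.6 (Khsrp in OPC replicate 2) of their library. Differences between OLs and OPCs at 0 h were tested with limma on log2(FPKM + 1) over all 8177 shared transcripts, of which 13.8% passed an adjusted p of 0.05 as higher and 15.8% as lower in OLs. Of the 7 genes, 0 were called higher and 2 were called lower in OLs, Zfp36l2 and Khsrp. Their median change was 0.16 on the log2 scale, beside -0.01 over all transcripts.

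**Figure D1:**
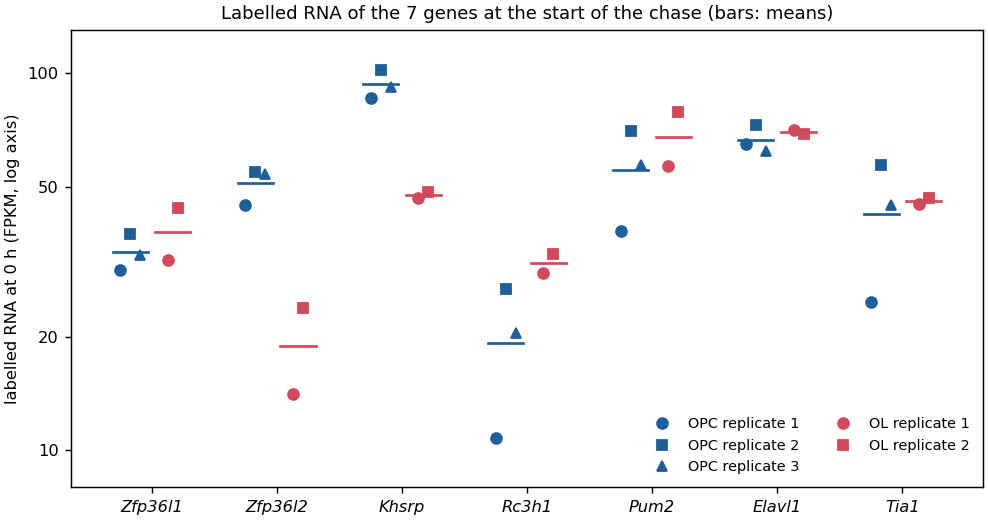
Labelled RNA at 0 h of chase in FPKM on a log axis, for each gene and replicate (OPC blue, n = 3, and OL red, n = 2, with short bars at the means). Zfp36l2 and Khsrp lie lower in both OL replicates than in all 3 OPC replicates, Rc3h1 lies higher, and the other 4 genes overlap. The share of all transcripts apart in this way at 0 h was not counted.

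Zfp36l2 stood out among the family. At 0 h its level in OPC replicates 1, 2 and 3 was 44.7, 54.6 and 54.2 FPKM, while OL replicates 1 and 2 had 14.1 and 23.8 FPKM. Both OL values lay below all 3 OPC values, and OL replicate 1 was the lower of the pair. The change was -1.42 ± 0.27 (SE) on the log2 scale (limma adjusted p = 0.00696), from 51.2 ± 5.55 FPKM (SD, n = 3) to 19.0 ± 6.83 FPKM (SD, n = 2). Without OL replicate 1 it was -1.07 with an adjusted p of 0.0639, and over the 10 alternatives tried for this result the adjusted p ran from 0.00248 to 0.0639.

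Zfp36l1, its listed relative, overlapped between the cell types in level. In order of replicate number, OPCs had 30.1, 37.5 and 32.9 FPKM and OLs had 32.0 and 43.9 FPKM, and the groups overlapped. The change was 0.16 ± 0.24 on the log2 scale (limma adjusted p = 0.63). Levels of Zfp36l2 were therefore above those of Zfp36l1 in each OPC replicate and below them in each OL replicate.

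The labelled mRNA of Zfp36l2 was among the first to be lost from OPCs. Of its 0 h level 27.2%, 59.2% and 53.4% was left after 1 h in OPCs (in order of replicate number, here and below), and 4.53%, 6.72% and 16.1% after 2 h. OLs kept 57.2% and 85.0% after 1 h and 45.2% and 76.1% after 2 h. From 0 to 2 h the level thus fell 6.21- to 22.1-fold in OPCs and was 1.31- to 2.21-fold lower in OLs, with no overlap. When limma was run on the 0, 1 and 2 h libraries alone, an alternative chosen after the values were seen, the slope of Zfp36l2 was less steep in OLs by 1.31 ± 0.24 log2 units per h (adjusted p = 0.0478). It was then 1 of 5 transcripts called among 8177, and its adjusted p ran from 0.0324 to 0.926 over the 14 alternatives for the difference of slopes.

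The half-lives of Zfp36l2 carried the same order. OPCs had 0.532, 0.919 and 0.90 h, at percentiles 1.64, 4.31 and 3.60 of the 8112 transcripts with 5 half-lives. OLs had 3.22 and 2.35 h, at percentiles 37.4 and 18.6. The OL half-lives were above all of the OPC ones, as they were for 35.9% of transcripts. The means were 0.784 ± 0.218 h (SD, n = 3) in OPCs and 2.79 ± 0.618 h (SD, n = 2) in OLs, a log2 difference of 1.85 ± 0.35 (SE), beside a median of 0.37 over all transcripts. The difference had an unadjusted p of 0.00875 and did not pass the threshold (limma adjusted p = 0.094). Of all transcripts 3.39% passed as longer and 0.148% as shorter in OLs, and none of the 7 genes passed in either direction. An unadjusted p under 0.05 was found for 2 of the 7 and for 1866 of all 8112 transcripts. With only the 3692 transcripts below the ceiling in all 5 replicates, the adjusted p of Zfp36l2 was 0.0443, and over 12 alternatives it ran from 0.0443 to 0.408. With each replicate centred on its own median, the difference of Zfp36l2 was 0.95 ± 0.36 (adjusted p = 0.0835), and 0 of the 7 and 1 of all transcripts were called.

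Zfp36l1 was also among the short-lived mRNAs, in both cell types. OPCs gave half-lives of 0.962, 1.24 and 1.72 h and OLs gave 1.57 and 2.66 h, with overlap. These values stood at percentiles 9.12 to 21.6 in OPCs and 12.8 to 24.7 in OLs. The log2 difference was 0.69 ± 0.39 (limma adjusted p = 0.444), and it was 1.07 without OL replicate 1 and 0.30 without OL replicate 2. At 4 h the groups were apart, with 5.60%, 2.63% and 5.42% of the 0 h level left in OPCs and 40.3% and 42.3% in OLs.

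Late in the chase both mRNAs of the family were higher again in OPCs. Zfp36l1 was at 1.69, 0.986 and 1.78 FPKM at 4 h and at 2.22, 2.68 and 3.43 FPKM at 6 h. Zfp36l2 was at 4.91, 2.67 and 2.49 FPKM at 4 h and at 6.03, 5.66 and 9.46 FPKM at 6 h. For both genes every OPC replicate was higher at 6 h than at 4 h, by factors of 1.23 to 3.80, whereas the median transcript of these replicates was at 0.45, 0.664 and 0.586 times its 4 h level. Of the 8530 OPC transcripts 3.58% were higher at 6 h than at 4 h in all 3 replicates. In OLs Zfp36l1 was lower at 6 h in both replicates (ratios 0.401 and 0.496), and Zfp36l2 was higher in replicate 1 (1.15) and lower in replicate 2 (0.534). This comparison was made after the values were seen and has no test.

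**Figure D2:**
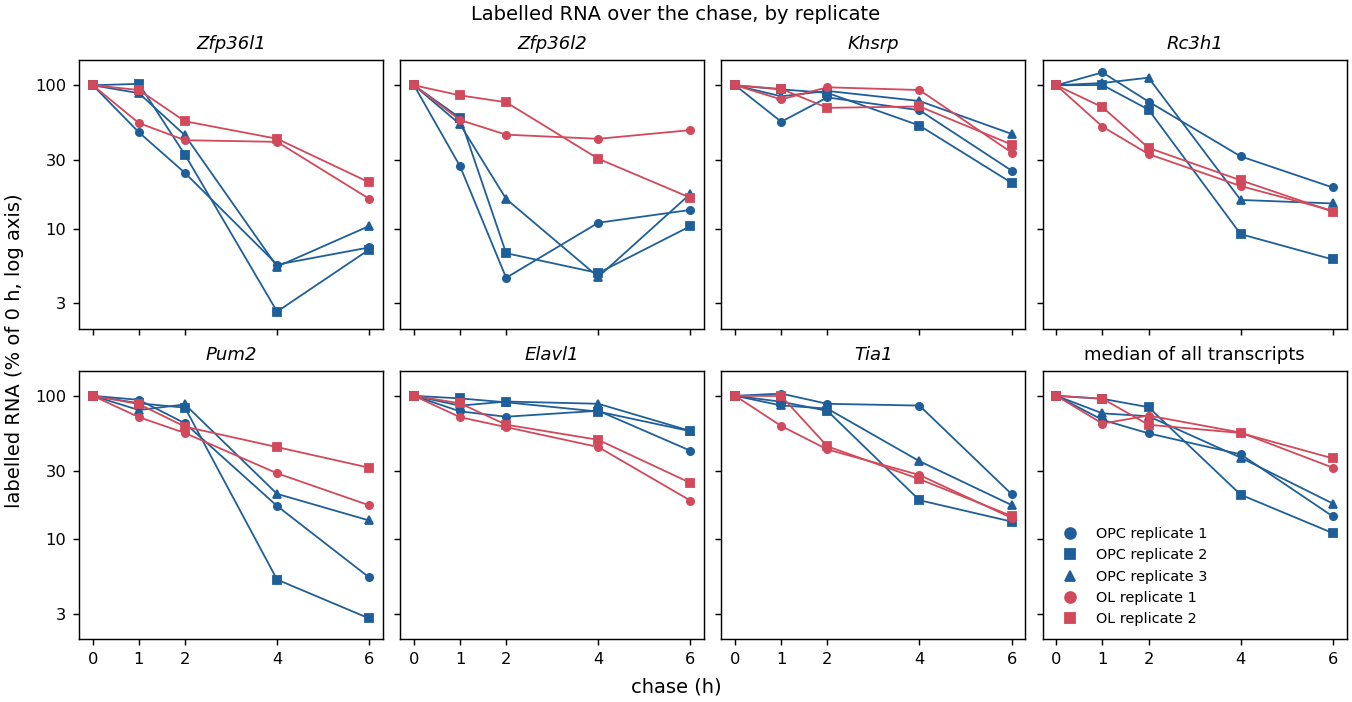
Labelled RNA at each chase time as a percentage of 0 h on a log axis, 1 line per replicate (OPC blue, OL red), with the median of all transcripts in the last panel. Zfp36l2 drops to 4.53% to 16.1% within 2 h in OPCs, both Zfp36l1 and Zfp36l2 turn upward after 4 h there, and Elavl1 is the gene whose OL lines run below its OPC lines from 2 h on while the median transcript runs the other way at 4 and 6 h.

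Over the whole chase all 7 genes fell in both cell types on the spike-in scale (limma slope, adjusted p under 0.05), as did 81.7% of all transcripts in OPCs and 68.4% in OLs. The median slope of the 7 was -0.45 log2 units per h in OPCs and -0.34 in OLs, beside -0.38 and -0.20 over all transcripts. In OPCs the slopes of Pum2 (-0.69 ± 0.07) and Zfp36l1 (-0.63 ± 0.08) were the steepest of the 7, within these errors of each other, and that of Elavl1 the shallowest (-0.14 ± 0.04). Without the 6 h libraries Zfp36l1 (-0.99) and Zfp36l2 (-0.93) were steeper than Pum2 (-0.72) in OPCs. Of the 7 genes 5 were then called in OPCs, without Elavl1 (-0.06, adjusted p = 0.296) and Khsrp (-0.13, adjusted p = 0.0788). In OLs 6 were called, without Khsrp (-0.07, adjusted p = 0.463). Over all transcripts 5746 of 8530 were called falling in OPCs and 4556 of 9751 in OLs under this setting. In OLs Tia1 was steepest (-0.44 ± 0.04) and Khsrp shallowest (-0.20 ± 0.05), and Rc3h1 (-0.43 ± 0.05) did not differ from Tia1 beyond these errors. The slope of Zfp36l2 in OLs (-0.27 ± 0.06) was not called without OL replicate 2, where it was -0.13. When every library was scaled instead to the median transcript, which takes out the shared decline, 3 of the 7 were called in OPCs. Of these Pum2 fell and Elavl1 and Khsrp rose relative to that median, and in OLs 4 were called, all of them falling. Over all transcripts 2904 were called rising and 2166 falling of 8530 in OPCs, and 2963 and 1962 of 9751 in OLs.

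The difference of slopes between the cell types was tested in 1 fit over 25 libraries. The slope was less steep in OLs in 32.1% of the 8177 transcripts and steeper in OLs in 0.391%. Of the 7 genes 1 was called in each direction, Pum2 as less steep and Elavl1 as steeper, and their median difference was 0.09 log2 units per h beside 0.14 over all. For Zfp36l1 the difference was 0.28 ± 0.11 (adjusted p = 0.0521) and for Zfp36l2 0.18 ± 0.17 (adjusted p = 0.416). Without the 6 h libraries these became 0.69 (adjusted p = 0.00125) and 0.60 (adjusted p = 0.0324). The fit takes the libraries of 1 replicate as separate values, so its p-values do not carry the spread of slopes between replicates. By replicate the slopes of Zfp36l2 were -0.35, -0.54 and -0.47 in OPCs and -0.13 and -0.41 in OLs, with overlap. On the scale of the median transcript the differences called were -0.47 for Elavl1, -0.21 for Khsrp and -0.28 for Tia1, all steeper in OLs, and over all transcripts the calls were then 843 less steep and 1945 steeper. The balance of directions thus differed between the scales.

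**Figure D3:**
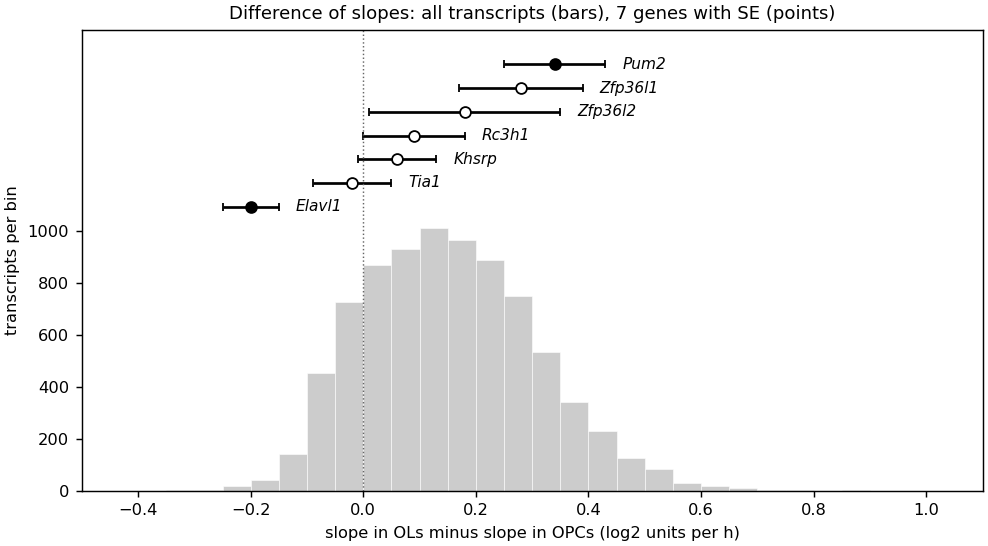
Slope in OLs minus slope in OPCs in log2 units per h: grey bars count all 8177 transcripts in bins, and points give the 7 genes with their SE, filled where the adjusted p is under 0.05. Elavl1 lies at -0.20, in the left tail of the bars, and Pum2 at 0.34, in the right part.

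Elavl1, the gene of the stabilising protein HuR, went against the series. At 0 h OPCs had 64.8, 72.8 and 62.3 FPKM and OLs had 70.6 and 69.0 FPKM, with overlap and a log2 change of 0.07 ± 0.21 (limma adjusted p = 0.824). Its labelled mRNA then lasted longer in OPCs. After 4 h 78.6%, 77.6% and 88.0% was left in OPCs and 43.9% and 49.3% in OLs, and after 6 h 41.4%, 56.6% and 56.8% was left in OPCs and 18.6% and 24.7% in OLs. At both times every OL value lay below every OPC value, while the median transcript was higher in OLs.

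The slopes of Elavl1 were -0.17, -0.13 and -0.11 log2 units per h in OPCs and -0.36 and -0.32 in OLs. The groups did not overlap, and the difference was -0.20 ± 0.05 (limma adjusted p = 0.00474). It ranked 19th from the lowest among the 8177. Scaled to the median transcript the difference was -0.47 (adjusted p = 2.41e-05). Without OL replicate 1 it was -0.18 (adjusted p = 0.0726) and without the 6 h libraries -0.20 (adjusted p = 0.0619), and over its 14 alternatives the adjusted p ran from 2.41e-05 to 0.742, the highest with the first 2 h alone.

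The half-life of Elavl1 was 4.71 h in OPC replicate 1 and at or above the ceiling of 6 h in replicates 2 and 3, against 2.75 and 2.98 h in OLs. It stood at percentiles 70.7 to 87.4 in OPCs and 30.1 and 30.6 in OLs. The groups did not overlap, a direction found in 2.01% of transcripts. The log2 difference of -0.95 ± 0.15 rests on 2 OPC values at the ceiling and had an unadjusted p of 0.00463 and an adjusted p of 0.0699 (limma). Without OPC replicate 1 the adjusted p was 0.0467, but both OPC values left are then the ceiling and have no spread by construction, and over 11 alternatives it ran from 0.0467 to 0.279.

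**Figure D4:**
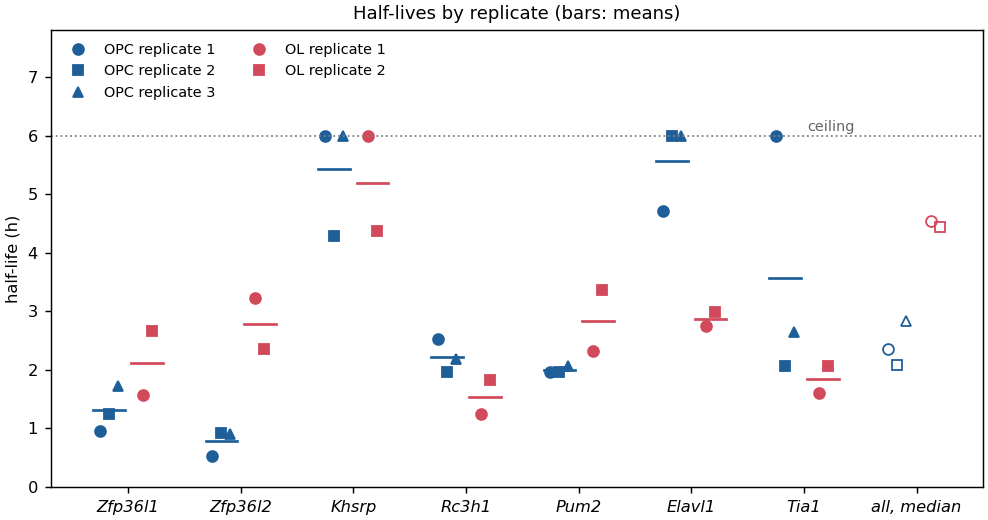
Half-lives in h for each gene and replicate (OPC blue, OL red, short bars at the means), with the ceiling of the fits at 6 h as a dotted line and the median of all transcripts as open symbols at the right. Zfp36l2 and Pum2 lie higher in both OL replicates, Elavl1 and Rc3h1 lie lower, and the other 3 genes overlap.

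Pum2, the gene of Pumilio 2, moved with the series. At 0 h OPCs had 38.2, 70.4 and 57.1 FPKM and OLs had 56.9 and 78.9 FPKM, with overlap. Its slopes were -0.66, -0.89 and -0.51 log2 units per h in OPCs and -0.41 and -0.28 in OLs, without overlap. The difference was 0.34 ± 0.09 (limma adjusted p = 0.00797), and it was 0.41 without OL replicate 1 (adjusted p = 0.052), 0.28 without OL replicate 2 (0.14), 0.14 on the scale of the median transcript (0.19) and 0.36 without the 6 h libraries (0.0963). On the first 2 h alone its sign turned, to -0.21 (0.77).

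Most of the loss of Pum2 in OPCs came between 2 and 4 h, when the median transcript fell as well. After 2 h 64.3%, 82.6% and 87.1% of the label was left, and after 4 h between 5.21% (replicate 2) and 20.7% (replicate 3). The median transcript of these replicates was at 54.7%, 83.3% and 72% at 2 h and at 39%, 20.4% and 37% at 4 h. In OLs 55.0% and 60.9% was left after 2 h and 28.8% and 43.8% after 4 h. The order of the cell types therefore turned between 2 and 4 h, with OPCs above OLs in all replicates at 2 h and below them at 4 h. The half-lives were 1.96, 1.96 and 2.07 h in OPCs and 2.32 and 3.36 h in OLs, with a log2 difference of 0.48 ± 0.19 (limma adjusted p = 0.266), which was 0.75 (adjusted p = 0.0671) without OL replicate 1 and 0.22 without OL replicate 2. It turned to -0.46 when refitted without the 6 h libraries and to -0.42 when centred on each replicate's median, and the groups overlapped when refitted by least squares. The fits returned 1.957 h, to within 0.001 h, for 2.18% and 25.6% of all transcripts in OPC replicates 1 and 2, so the close agreement of Pum2 there does not measure its precision.

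Rc3h1, the gene of the RNA-binding ubiquitin ligase Roquin-1, had the lowest 0 h levels of the 7 in the OPC replicates. These were 10.8, 26.7 and 20.5 FPKM, against 29.5 and 33.3 FPKM in OLs. OL values were above all OPC values, but the change of 0.76 ± 0.35 did not pass (limma adjusted p = 0.14), except without OPC replicate 2, where it was 1.02 (adjusted p = 0.0494). Without OPC replicate 1 it was 0.41 (adjusted p = 0.234). Its loss in OPCs, like that of Pum2, came mostly between 2 and 4 h, when the median transcript given above fell as well. There 76.9%, 67.6% and 113% was left at 2 h and 31.9%, 9.14% and 15.8% at 4 h. In OLs 33.1% and 36.6% was left at 2 h, below all OPC values, and 19.8% and 21.7% at 4 h, within the OPC range. The half-lives were 2.53, 1.96 and 2.19 h in OPCs and 1.25 and 1.82 h in OLs, apart but not called, with a log2 difference of -0.55 ± 0.23 (adjusted p = 0.283). The size of this difference depended on the setting. It was -0.29 without OL replicate 1, -1.02 when refitted by least squares, -1.65 when refitted without the 6 h libraries and -1.46 (adjusted p = 0.0509) with each replicate centred on its own median, and it was called in none of these. The difference of slopes over the whole chase had the other sign and was not called (0.09 ± 0.09, adjusted p = 0.471), with overlap of the replicates. Rc3h1 stood at percentiles 39.2 to 52.7 in OPCs and 7.27 and 7.40 in OLs.

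Khsrp, the KH-domain protein gene, had the highest 0 h level of the 7 in OPCs. It was at 86.1, 102.2 and 91.8 FPKM in OPCs and at 46.8 and 48.3 FPKM in OLs, so that both OL values lay below all of the OPC values. The change was -0.95 ± 0.21 on the log2 scale (limma adjusted p = 0.0123), or 1.94-fold lower in OLs. Without OPC replicate 3, OL replicate 1 or OL replicate 2 it was -0.96, -0.93 and -0.98 with adjusted p of 0.0583, 0.0817 and 0.0637, and over 10 alternatives the adjusted p ran from 0.00454 to 0.0817.

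Khsrp stood at percentiles 69.4 to 87.8 of half-life in OPCs and at 78.8 and 49.5 in OLs, and its OL slope of -0.20 equalled the median of all transcripts. It had a half-life of 4.28 h in OPC replicate 2 and of 4.37 h in OL replicate 2, and the ceiling was reached in the other OPC and OL replicates, so the groups overlapped. The log2 difference of -0.07 ± 0.25 (limma adjusted p = 1) changed sign under 6 settings and was called under none of 11. With each replicate centred on its own median it was -0.97 ± 0.30 (adjusted p = 0.0509). After 4 h 67.0%, 52.4% and 77.7% was left in OPCs and 92.7% and 71.2% in OLs, with overlap.

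Tia1, the gene of the stress granule protein TIA1, was at 24.8, 57.2 and 44.8 FPKM in OPCs and at 44.9 and 46.7 FPKM in OLs. OPC replicate 1 was low and the groups overlapped (log2 change 0.19 ± 0.34, limma adjusted p = 0.698). Half-lives were at the ceiling, 2.06 h and 2.64 h in OPCs and 1.61 and 2.07 h in OLs, with overlap. At 2 h 87.9%, 78.6% and 81.5% of the label was left in OPCs and 42.2% and 44.4% in OLs, and every OL value was below every OPC value. At 4 h 85.5%, 18.7% and 34.9% was left in OPCs and 28.0% and 26.2% in OLs, and the groups overlapped there and at 6 h. The difference of slopes over the whole chase did not pass (-0.02 ± 0.07, adjusted p = 0.84), but on the scale of the median transcript the difference was -0.28 (adjusted p = 0.000699). In half-life Tia1 stood at percentiles 47.1 to 87.8 in OPCs and 13.6 and 13.2 in OLs.

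The half-lives of the 7 genes were ordered as follows. In OPCs Zfp36l2 was shortest, below Zfp36l1 in each replicate, followed by Pum2 and Rc3h1. The means of these 2 were 2.00 ± 0.0678 and 2.23 ± 0.289 h (SD, n = 3). Both include fits at 1.957 h, so these SDs do not measure precision and the order of the 2 is not settled. Tia1 varied from 2.06 h to the ceiling, and Khsrp and Elavl1 were longest. In OLs the means of Rc3h1 (1.53 ± 0.397 h, SD, n = 2), Tia1 (1.84 ± 0.326 h) and Zfp36l1 (2.12 ± 0.774 h) were shortest, those of Zfp36l2, Pum2 and Elavl1 lay between 2.79 and 2.87 h, and Khsrp was longest at 5.18 ± 1.15 h. Neighbours in the OL order other than Khsrp lay within their spread.

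The other genes of these pathways were taken from 4 lists. Of 36 other RNA-binding regulators, not all of which bind AU-, U- or GU-rich sites, 23 were tested at 0 h. Of these 2 were higher in OLs and 3 were lower, beside 13.8% and 15.8% of all transcripts. Cpeb2, which binds the cytoplasmic polyadenylation element, was at 3.55, 8.99 and 8.04 FPKM in OPCs and at 43.2 and 48.1 FPKM in OLs (log2 change 2.65 ± 0.35, limma adjusted p = 0.00134), with all OL values above the OPC values. Zc3h12c, of the Regnase family, was also higher (0.87 ± 0.26, adjusted p = 0.0402). Ptbp1, the polypyrimidine tract-binding protein gene that goes down as neurons differentiate, was at 126, 127 and 124 FPKM in OPCs and at 34.6 and 40.6 FPKM in OLs (-1.72 ± 0.21, adjusted p = 0.000916). Celf2 (-1.26 ± 0.32, adjusted p = 0.0213) and Hnrnpab (-0.97 ± 0.23, adjusted p = 0.0159) were lower as well. The median change of the list was 0.14, beside -0.01 over all transcripts. Ptbp1 was also the 1 gene of the list whose half-life was called longer in OLs, beside 3.39% of all transcripts, from 2.15, 1.96 and 1.96 h to 3.42 and 3.40 h. The OPC values of replicates 2 and 3 lie on the 1.957 h that the fits also gave for Pum2. For 0 genes of the list was the half-life called without OPC replicate 2, OPC replicate 3 or either OL replicate, with the replicate block, when refitted by least squares or without the 6 h libraries, or when centred on each replicate's median. On a linear scale of hours 3 half-lives of the list were called longer and 1 shorter, beside 581 and 19 of all 8112 transcripts. Leaving out 1 OPC replicate gave 1 to 5 higher and 1 to 3 lower levels. Over all 8177 transcripts it gave 1263 to 2605 level calls in either direction.

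The deadenylases and decapping factors that these proteins recruit were mostly not called in level. Of 26 genes 21 were tested, 0 were higher and 2 lower in OLs, beside 13.8% and 15.8% of all transcripts, also when any 1 replicate was left out, and the median change was 0.03. The lower ones were Cnot9, a CCR4-NOT subunit that contacts several RNA-binding proteins, at 70.0, 63.6 and 71.9 FPKM in OPCs and 25.6 and 26.7 FPKM in OLs (-1.35 ± 0.21, limma adjusted p = 0.00265), and the deadenylase gene Pan2 (-1.33 ± 0.22, adjusted p = 0.00386). Slopes were less steep in OLs in 7 of the 21, beside 32.1% of all transcripts, and steeper in 0. Without OL replicate 1 the 7 became 2, and without OL replicate 2 they became 3. Over all transcripts the less steep calls moved likewise, from 2623 to 741 and to 971. Half-lives were called in 0, beside 3.39% longer and 0.148% shorter over all transcripts, with a median log2 difference of 0.42 beside 0.37 over all transcripts.

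The kinases p38 and MK2 act on the ZFP36 proteins. The list of 17 genes for this arm also held Ywha, Ppp2 and Dusp1 genes, which do not encode kinases. Of the 17 genes 13 were tested, 0 were higher and 4 lower in OLs, beside 13.8% and 15.8% of all transcripts. The median change was -0.50. Without OPC replicate 1, or with a pseudocount of 5 FPKM, 1 was also called higher. Mapk11 (p38 beta) was at 11.4, 10.8 and 12.6 FPKM in OPCs and at 1.89 and 1.71 FPKM in OLs (-2.16 ± 0.21, limma adjusted p = 0.000352). Mapk14 (p38 alpha) was at 39.1, 37.3 and 37.7 FPKM in OPCs and at 19.6 and 23.0 FPKM in OLs (-0.81 ± 0.21, adjusted p = 0.0227), and the kinase kinase gene Map2k6 was lower by the same test (-1.17 ± 0.30, adjusted p = 0.0221). The 4th, Mapkapk2, which encodes MK2 and is named here although it falls outside the naming rule, was at 70.5, 52.3 and 61.8 FPKM in OPCs and 33.9 and 36.1 FPKM in OLs (-0.79 ± 0.22, adjusted p = 0.0322). For all 4 both OL values lay below the OPC values. The slopes of these 4 were less steep in OLs (limma adjusted p of the difference from 0.00296 to 0.0114). With Ywhag and Map2k4 this held for 6 of the 13, beside 32.1% of all transcripts. At the OL levels of Mapk11 the 1 FPKM added before logs flattens its slope. Half-lives of Mapk11 and Map2k6 overlapped or met at the ceiling, and none of the 4 was called in half-life. Ywhag was the 1 of the 13 called longer in OLs (1.15 ± 0.10, limma adjusted p = 0.0346), beside 3.39% of all transcripts. With the replicate block, in both refits or centred on the median 0 were called. With the replicate block there were 2 calls of a lower level at 0 h, beside 961 of all 8177 transcripts. Without OPC replicate 3 there was 1, beside 641. With 1 OL replicate left out the level fit rests on 1 OL value.

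Of 32 mRNAs that textbooks give as carriers of AREs, 20 were tested at 0 h, 4 were higher and 5 lower in OLs, beside 13.8% and 15.8% of all transcripts. The higher ones were Sgk1, a serum-induced kinase gene (2.73 ± 0.26, limma adjusted p = 0.00036), Fos (1.77 ± 0.42, adjusted p = 0.0176), Vegfa (1.09 ± 0.22, adjusted p = 0.00907) and Hif1a. The lower ones were the cyclin genes Ccnd2 (-3.62 ± 0.29, adjusted p = 0.000237), Ccnb1 (-3.47 ± 0.45, adjusted p = 0.00133) and Ccnd1 (-2.49 ± 0.27, adjusted p = 0.00055), and Myc and Ier2. Without OPC replicate 3 there were 2 higher and 4 lower calls, beside 622 and 641 over all 8177 transcripts. Without OPC replicate 1 there were 4 and 7, beside 1160 and 1324. With 1 OL replicate left out the level fit rests on 1 OL value.

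The median log2 difference of half-life was 1.25 over the 17 of these mRNAs tested, beside 0.37 over all transcripts, and 1 was called longer in OLs, beside 3.39% of all transcripts. This was Ier2, an immediate early gene, with 0.86, 0.704 and 1.09 h in OPCs and 4.46 and 3.77 h in OLs (2.24 ± 0.23, limma adjusted p = 0.0429), and 0 were called without OPC replicate 1, OPC replicate 3 or either OL replicate, with the replicate block, in both refits or when centred on each replicate's median. Myc had half-lives of 0.459, 0.686 and 0.843 h in OPCs and 0.974 and 2.34 h in OLs, also without overlap, and was not called. On a linear scale of hours 3 of the 17 were called longer, beside 581 of all 8112 transcripts. Among transcripts under the ceiling in all 5 replicates 3 of 9 were called longer, beside 148 of 3692. Cyclin D2 mRNA was at the ceiling in all 5 replicates and Sgk1 was at most 1.09 h in all 5, so the list held both extremes. In slope 4 of 20 were less steep in OLs, beside 32.1% of all transcripts, and 0 steeper, the largest difference being that of Cdkn1a, the p21 gene (0.61 ± 0.08, adjusted p = 5.36e-05), whose half-life was 1.34, 1.96 and 1.17 h in OPCs and at the ceiling in both OL replicates. On the scale of the median transcript the called slope differences of the 4 lists, in the order above, were 2 less steep and 7 steeper, 2 and 6, 1 and 4, and 3 and 4, beside 843 and 1945 of all 8177 transcripts.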

How the data were processed

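Labelled RNA from 3 OPC and 2 OL replicates at 5 chase times was analysed, grouped by the labels. The authors aligned reads to GRCm38 with HISAT2 (version 2.1.0 in the submitters' processing notes), quantified canonical coding transcripts with StringTie (1.3.5), and deposited FPKM values of transcripts with at least 1 FPKM at 0 h, scaled after 0 h to labelled spike-ins. An error in that scale moves all transcripts of a library together. The deposited half-lives, in h, are the authors' fits of 1 exponential by least absolute deviations, with longer estimates held at a ceiling listed just above 6 h, which was set here to 6 h.

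Levels were tested as log2(FPKM + 1), half-lives as log2 h, and slopes against chase time with 1 intercept per replicate, in limma 3.58.1 (R 4.3.3) with Benjamini-Hochberg adjustment over all transcripts tested and a threshold of 0.05. Fold changes on the log2(FPKM + 1) scale understate low genes. Depth is unknown, so no counting error is given. With 3 and 2 replicates, groups can lie apart without a true difference. The share of all transcripts with groups apart was counted for half-lives only, at 35.9% longer and 2.01% shorter in OLs. P-values of levels and half-lives measure the spread between these cultures, and those of slopes the spread between libraries. The fits were tested on simulated data. 3′ UTRs were read from GENCODE M21 transcripts of GRCm38, and all 10104 listed transcripts were matched by identifier. Every listed member is named, and of each list the genes past the 0 h threshold, at most 3 in each direction by size, while others named were chosen after their values were seen. The members and lists were chosen with earlier results of these data known. Since the study does not give which OPC and OL numbers match, replicate numbers were not used as pairs.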

Additional observations from a re-analysis of the deposited data

Results flagged for a closer look

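The slope over the chase differed between OLs and OPCs in 2 of the 7 genes by the test of the difference itself. For Elavl1 it was -0.20 log2 units per h (steeper in OLs, limma adjusted p = 0.00474), with OPC slopes of -0.17, -0.13 and -0.11 and OL slopes of -0.36 and -0.32. For Pum2 it was 0.34 log2 units per h (less steep in OLs, limma adjusted p = 0.00797), with OPC slopes of -0.66, -0.89 and -0.51 and OL slopes of -0.41 and -0.28. The first direction was called in 0.391% of all transcripts and the second in 32.1%.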

How the results depend on the processing

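Of 396 values of single genes under the alternatives, 337 kept their direction and their side of the threshold, 28 lost and 7 gained the call with the same sign, and 24 changed sign, some of them with a change of call as well. Leaving out 1 replicate gave 0 to 3 called genes of the 7 for the 0 h level (2 in the full fit), 0 to 1 for half-life (0), 7 for the OPC slope (7), 6 to 7 for the OL slope (7) and 0 to 2 for the difference of slopes (2). Without 1 OPC replicate the calls over all transcripts were 1263 to 2605 of 8177 at 0 h. They were 167 to 218 of 8112 for half-life and 1748 to 2722 of 8177 for the difference of slopes. With the libraries scaled to the 0 h median, 3 genes were called in OPCs and 4 in OLs, beside 5070 of 8530 and 4925 of 9751 transcripts. With the first 2 h alone, an alternative added after the values were seen, 2 were called in OPCs, 3 in OLs and 1 in the difference of slopes. Over all transcripts these were 3263 of 8530, 2280 of 9751 and 5 of 8177. With half-lives under the ceiling only, 1 was called, beside 149 of 3692 transcripts.

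Signs changed at 0 h for Tia1 without OPC replicate 1 (-0.14) and for Zfp36l1 without OL replicate 2 (-0.06), where leaving out each replicate gave -0.14 to 0.45 and -0.06 to 0.38. In half-life they changed for Khsrp with the replicate block (0.01), refitted without the 6 h libraries (0.03), refitted by least squares (0.28), without OPC replicate 1 or 3 (0.01 each) and without OL replicate 2 (0.16, with -0.30 as the lowest of these), for Zfp36l1 centred on each replicate's median (-0.22), and for Pum2 centred in this way (-0.42) and refitted without 6 h (-0.46). Scaled to the 0 h median, OPC slopes changed sign for Zfp36l2 (0.02), Elavl1 (0.37), Khsrp (0.25) and Tia1 (0.07), the OL slope for Khsrp (0.05), and the difference of slopes for Zfp36l2 (-0.07), Khsrp (-0.21) and Rc3h1 (-0.13). This scaling removes the shared decline by construction. The difference of slopes also changed sign in the first 2 h for Khsrp (-0.04), Pum2 (-0.21) and Rc3h1 (-0.60), and for Tia1 without OPC replicate 1 (0.03) and without OL replicate 2 (0.00). The cause of the other changes was not tested.

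The replicate numbers were checked as a possible pairing. Deviations of OL and OPC libraries with the same number correlated at 0.0589 and 0.0102 for 0 h levels and at -0.00162 and -0.105 for half-lives, and the other combinations of numbers reached at most 0.105. With 2 OL replicates their deviations mirror each other by construction, so the check says little, and the numbers were not shown to pair the samples. With the replicate block the same 2 genes of the 7 were called at 0 h (Khsrp and Zfp36l2), 0 in half-life and 2 in the difference of slopes. Over all transcripts the block moved the calls from 2421 to 1932 at 0 h, from 287 to 0 in half-life and from 2655 to 2738 in the difference of slopes. Leaving out 1 OL replicate moved the less steep slopes called in the 4 lists from 6, 7, 6 and 4 to 2, 2, 5 and 3 (replicate 1) and to 2, 3, 2 and 3 (replicate 2). Over all 8177 transcripts these calls moved from 2623 to 741 (replicate 1) and to 971 (replicate 2).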

Other observations

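Over the 25 chase libraries, the transcripts whose log2(FPKM + 1) values ran most like those of Zfp36l2 were N4bp1 (Pearson's r 0.965), Rnf169 (0.945) and Spry2 (0.942), out of 7561 transcripts with a mean of at least 5 FPKM at 0 h. For Zfp36l1 the first 2 were Zbtb17 (0.975) and Rundc1 (0.975), and for Elavl1 they were Hdac2 (0.957), Bzw2 (0.921) and Cbfb (0.891). The libraries share spike-in scales and time courses, so these values are descriptions. The likeness had been planned for Zfp36, which was not listed, and was computed for these 3 genes instead after their values were seen.

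Some half-lives of the authors' fits sat on 1 value. Half-lives within 0.001 h of 1.957 h made up 2.18%, 25.6% and 7.45% of the OPC replicates, in order of their number, and 0.47% and 1.38% of the OL replicates. Pum2 was among them in OPC replicates 1 and 2, and Rc3h1 in OPC replicate 2. Refitted by least squares Pum2 had 2.28, 2.28 and 2.74 h in OPCs and 2.25 and 3.41 h in OLs, with overlap.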
